A study of Homo sapiens with 12 samples.

Results

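Tubulins are the building blocks of microtubules, and the genes that encode them are a textbook case of mRNAs whose stability depends on their own translation. The 10 tubulin genes described here, of 58721 genes in the tables, were listed by symbol: the alpha-tubulin genes TUBA1A, TUBA1B, TUBA1C and TUBA4A, the beta-tubulin genes TUBB, TUBB2A, TUBB2B, TUBB4B and TUBB6, and the gamma-tubulin gene TUBG1. Symbols were joined to the gene identifiers of the tables through GENCODE. Transcripts and ribosome footprints of these genes were measured in HepG2, a liver cancer cell line, after transient siRNA knockdown of the RNA-binding protein IGF2BP3 (siIGF2BP3) or with a control siRNA (siControl).

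Each siRNA was represented by 3 Input libraries, which report transcript abundance, and 3 libraries of ribosome-protected fragments (RPF), 12 in all. All cells carried an siRNA and received 100 μg/mL cycloheximide for 4 min at 2 days after knockdown, and fragments of 28 to 30 nt were isolated for the RPF libraries. The labels attach this footprint protocol to Input as well, and the preparation of the Input libraries is not given in the sources used here. Nothing stated whether the replicates were separate cultures, so p-values measure the spread between these libraries, which may be technical.

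Cells adjust tubulin synthesis to the pool of unassembled tubulin dimers. When free tubulin is in excess, the factor TTC5 recognises the first residues of alpha- and beta-tubulin chains as they leave the ribosome and, through the adaptor SCAPER, brings the CCR4-NOT deadenylase to the ribosome, and the mRNA being translated is degraded. Gamma-tubulin nucleates microtubules at centrosomes and is not part of the alpha-beta dimer.

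The coding starts of the members are shown because this is the feature that the autoregulatory machinery reads in the nascent chain. Each line below holds the first 30 coding bases, 5′ to 3′, of the GENCODE 44 canonical transcript (hg38). Capitals mark the start codon followed by arginine, glutamate and cysteine codons in alpha-tubulins or arginine, glutamate and isoleucine codons in beta-tubulins. The 30 bases of TUBA1B and TUBA1C are identical to those of TUBA1A. In TUBG1 the capitals mark arginine, glutamate and isoleucine codons that follow 1 additional codon.
TUBA1A: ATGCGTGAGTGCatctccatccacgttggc
TUBA4A: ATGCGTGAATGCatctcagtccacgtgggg
TUBB: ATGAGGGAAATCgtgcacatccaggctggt
TUBB2A: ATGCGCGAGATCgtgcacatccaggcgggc
TUBB2B: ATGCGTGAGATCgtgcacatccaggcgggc
TUBB4B: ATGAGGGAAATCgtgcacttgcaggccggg
TUBB6: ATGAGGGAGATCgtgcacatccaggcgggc
TUBG1: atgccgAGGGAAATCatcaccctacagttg

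All 9 alpha- and beta-tubulin members carried the 4-codon start at the first codon, and TUBG1 did not. Of 20070 canonical coding transcripts that began with ATG, 19 (0.0947%) had this start, and all 19 were tubulin genes. The shorter start of methionine, arginine and glutamate codons was found in 43 transcripts (0.214%). The arginine and glutamate codons themselves varied among the members, and TUBB, TUBB4B and TUBB6 shared an arginine codon that differed from those in TUBB2A and TUBB2B.

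The members are close copies of each other, which bears on how reads can be assigned to them. The coding sequences of TUBA1A and TUBA1B were identical at 97.2% of aligned bases, and those of TUBB2A and TUBB2B at 98.1%. In windows of 29 bases, the size of a footprint, 74.7% of the TUBA1A coding sequence, 87.4% of TUBA1B and 74.5% of TUBA1C also occurred in another gene. The shares were 84.4% for TUBB2A, 81.7% for TUBB2B, 59.1% for TUBB and 48.6% for TUBG1, and they were lower for TUBB4B (26.6%), TUBA4A (21.8%) and TUBB6 (11.7%). For longer windows of 100 transcript bases the shares dropped to 21.2% in TUBA1A, 12.3% in TUBA1C and 5.42% in TUBB, and to 37.2% in TUBA1B, 55.6% in TUBB2A and 48.7% in TUBB2B. The counts held fractions for 31.8% to 33.3% of the genes with a count in Input libraries and 63.2% to 66% in RPF libraries. Every member had fractional counts in at least 7 of 12 libraries, so values of single paralogues are uncertain wherever reads could be divided between them.

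The members lie on 6 chromosomes (gene coordinates as deposited with the counts, hg38). TUBA1A (chromosome 12, 49184796 to 49189324), TUBA1B (12, 49127782 to 49131397) and TUBA1C (12, 49188736 to 49274603) form a cluster in which TUBA1A and TUBA1C overlap on opposite strands by 490 exon bases. TUBA4A lies at 219249711 to 219278170 on chromosome 2 and shares 627 exon bases with STK16 on the other strand. TUBB2A (3153669 to 3157526), TUBB2B (3224261 to 3231730) and TUBB (30720201 to 30725426) are on chromosome 6. TUBB4B occupies 137241213 to 137243707 of chromosome 9, TUBB6 12307669 to 12344320 of chromosome 18 and TUBG1 42609676 to 42615234 of chromosome 17. TUBB6 shares 837 exon bases with AFG3L2 on the other strand, which stood at 87.1 CPM (counts per 1000000 counts of a library) in siControl Input against 20.1 CPM for TUBB6. Whether counting used the strand is not given in the sources used here, so reads of such partners may not be separable.

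Library totals ranged from 11219750 to 14797573 counts in Input and from 13036423 to 31510601 in RPF. IGF2BP3 stood at 133.3, 128.6 and 126.7 CPM in siControl Input and 102.6, 97.9 and 105.5 CPM in siIGF2BP3 Input. In RPF it stood at 74.6, 78.1 and 77.7 CPM against 21.9, 28.0 and 25.2 CPM, lower in every knockdown library. The 10 HepG2 markers, ALB and AFP among them, summed to at least 54130 CPM in every library, and 6 markers of other cell types to at most 69.3 CPM. RPF replicates 2 and 3 of siControl differed by less than the sampling noise (mean chi-square 0.941 per gene) and were counted as 1 sample in means and SDs, giving n = 2. RPF replicate 1 of siIGF2BP3 stood apart from its group (mean chi-square 19.9 and 21.5, against 1.15 between the other two), and footprint and TE results are also given without it where they moved.

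In control cells, 3 genes supplied most of the tubulin transcripts. Levels are given as CPM per kilobase of exon for Input, with all annotated exons of a gene counted in its length. That length exceeds the canonical transcript unequally, with 3574 against 1627 bases in TUBA1B and 1727 against 1616 in TUBB2A. Levels and order therefore depend on this choice, and an order per canonical transcript was not computed. TUBA1B, a ubiquitous alpha-tubulin, was highest at 213.9 ± 4.38 (SD, n = 3), followed by TUBB4B at 162.8 ± 3.40, TUBA1C at 119.4 ± 1.04, TUBB at 62.4 ± 1.46 and TUBG1 at 54.9 ± 2.11. TUBB2A reached 36.1 ± 0.707 and TUBB2B 21.5 ± 1.06. TUBB6 (4.88 ± 0.641), TUBA4A (4.09 ± 0.275) and TUBA1A (3.93 ± 0.203) closed the order, and the ranges of TUBB6 and TUBA4A overlapped, as did those of TUBA4A and TUBA1A. By this measure all other neighbours in the order had separate ranges. The order was the same in siIGF2BP3 cells, with the same overlaps.

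**Figure D1:**
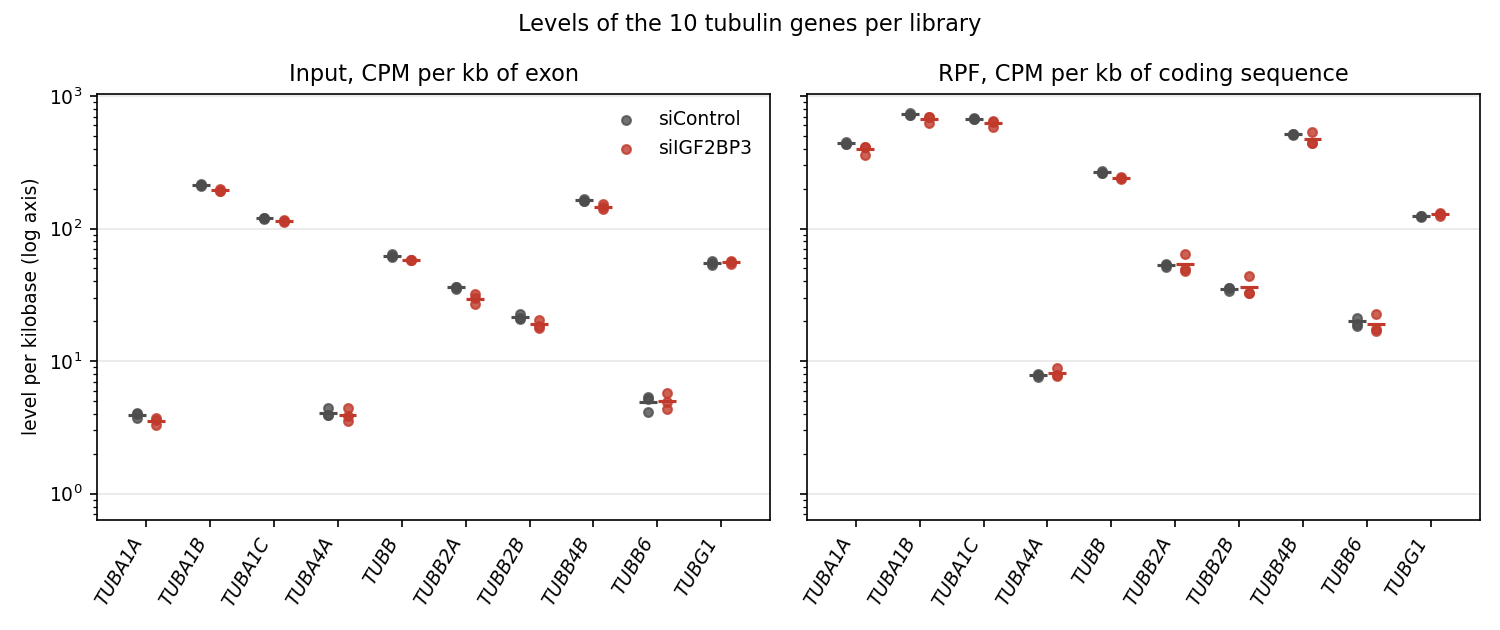
Levels of the 10 tubulin genes in each library, as Input CPM per kilobase of exon (left) and RPF CPM per kilobase of coding sequence (right), on a shared log axis, with siControl in grey and siIGF2BP3 in red; horizontal bars are group means. TUBA1A lies among the lowest genes in Input and among the highest in RPF.

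Footprint levels, as CPM per kilobase of coding sequence, gave a different order. TUBA1B (728.6 ± 8.83, SD, n = 2) was highest, TUBA1C (670.0 ± 6.28) stood above TUBB4B (514.0 ± 3.78), and TUBA1A came next at 440.1 ± 4.85, above TUBB at 265.1 ± 2.94 and TUBG1 at 123.7 ± 0.137. TUBB2A (52.8 ± 0.620), TUBB2B (35.2 ± 0.620), TUBB6 (20.0 ± 1.71) and TUBA4A (7.81 ± 0.0373) were the lowest. No neighbouring ranges overlapped in siControl. In siIGF2BP3 RPF the ranges of TUBA1B and TUBA1C overlapped.

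The footprint to transcript comparison in siControl cells asked how densely each mRNA was occupied relative to the typical gene. TUBA1A had 592.1, 588.7 and 614.1 CPM in RPF against 13.8, 12.6 and 13.9 CPM in Input, a ratio of means of 44.4 and higher than in 99.9% of 9797 genes with at least 5 CPM in both assays. Its ratio in siIGF2BP3 cells was 44.3. TUBB4B followed with a ratio of 2.00, then TUBB with 1.69, TUBA1C with 1.64, TUBB6 with 1.33, TUBA1B with 1.29, TUBG1 with 1.27 and TUBB2A with 1.13. TUBB2B was near parity at 0.997 and TUBA4A was at 0.630. In the edgeR quasi-likelihood test 9 of 10 members differed between RPF and Input in siControl, where 86.7% of all 13395 tested genes did, so the count itself sets no member apart. The 8 that were higher (43.6% of all genes were) ranged from 0.33 ± 0.0833 (SE) for TUBB2A to 5.63 ± 0.0799 for TUBA1A on the log2 scale. TUBA4A was lower by 0.51 ± 0.0974 (adjusted p = 5.45e-05), and TUBB2B differed by 0.14 ± 0.0904 (adjusted p = 0.141).

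TUBA1A held 1.01%, 0.954% and 1.03% of the summed alpha-tubulin counts in the siControl Input libraries and 23.9%, 23.7% and 24.0% in RPF. TUBA1B went from 56.7% ± 0.238 (SD, n = 3) of the alpha counts in Input to 39.5% ± 0.0525 (n = 2) in RPF. TUBA1C went from 41.0% ± 0.313 to 36.2% ± 0.0498. The same direction was seen in annotated pseudogenes, which are copies without a protein product. TUBAP2 shares 44.8% of the 29-base coding windows of TUBA1B, 32.2% of those of TUBA1A and 29.9% of those of TUBA1C. It stood at 1.93 ± 0.475 CPM in siControl Input and 291.6 ± 4.08 CPM in RPF. TUBBP1, which shares 49.3% of the 29-base coding windows of TUBB, stood at 0.600 ± 0.187 CPM in Input and 169.1 ± 0.988 CPM in RPF. TUBB6, the member with the least shared sequence, had a ratio of 1.33, and TUBA4A and TUBB4B, with 21.8% and 26.6% of windows shared, had 0.630 and 2.00. The part that shared windows have in the TUBA1A footprint count was not tested.

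**Figure D2:**
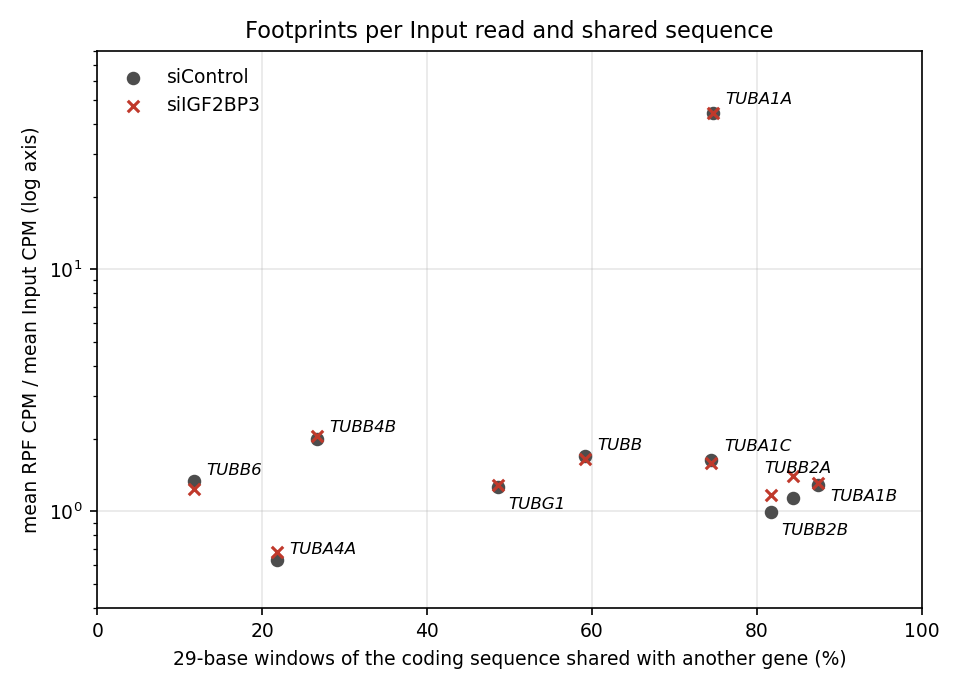
Ratio of mean RPF CPM to mean Input CPM (log axis) against the share of 29-base windows of the coding sequence that also occur in another gene (percent), 1 point per member and condition, circles for siControl and crosses for siIGF2BP3. In siControl TUBA1A is at 44.4 and TUBA1C at 1.64, with 74.7% and 74.5% of windows shared. Their siControl Input means were 13.4 and 553.1 CPM. The part that shared windows have in these ratios was not tested.

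Among beta-tubulins the mix moved less between the assays. TUBB4B made up 50.3% ± 0.460 (SD, n = 3) of the beta counts in siControl Input and 58.0% ± 0.176 (n = 2) in RPF, and TUBB 30.7% ± 0.950 and 29.8% ± 0.458. TUBB2A went from 9.14% ± 0.112 to 5.96% ± 0.0450 of the counts and TUBB2B from 6.92% ± 0.282 to 3.97% ± 0.0537. Alpha-tubulins supplied 66.4% ± 0.579 of the alpha and beta counts in Input and 67.8% ± 0.329 in RPF. These shares are descriptions and carry no test.

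After IGF2BP3 knockdown, 5 of the 10 tubulin transcripts fell and none rose. TUBA1B, TUBB, TUBB2A, TUBB2B and TUBB4B were each lower in all 3 siIGF2BP3 Input libraries than in all 3 siControl Input libraries. TUBB2A and TUBB2B share 53.7% and 44.7% of their 100-base transcript windows with each other. Their calls may therefore rest in part on the same divided reads. Among all 14759 genes tested 5.96% were called (adjusted p under 0.05) and 1.9% were called lower. The abundant TUBA1C, the scarce TUBA1A, TUBA4A and TUBB6, and TUBG1, the member without the 4-codon start, did not pass the test. In these bulk samples, fewer cells expressing a gene and less of its RNA per cell cannot be told apart.

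Of the alpha-tubulins, TUBA1B stood at 779.1, 748.0 and 766.5 CPM in siControl Input against 689.1, 685.6 and 706.4 CPM in siIGF2BP3 Input. The groups did not overlap, and the fitted log2 change was -0.19 ± 0.042 (SE, adjusted p = 0.00688, edgeR). TUBA1C, its neighbour in the genome, stood at 557.5, 548.0 and 553.9 CPM against 520.4, 526.0 and 537.2 CPM. Its groups did not overlap either, yet the change of -0.12 ± 0.0417 missed the threshold in edgeR (adjusted p = 0.104) and passed it in DESeq2 (adjusted p = 0.0296, range over 14 alternatives 0.0296 to 0.267). TUBA1A, known as the main alpha-tubulin of developing neurons, had low counts in Input, 127.5 to 187.0 reads a library, and its CPM of 12.6 to 13.9 in siControl overlapped the 11.2 to 12.7 in siIGF2BP3 (log2 change -0.19 ± 0.107, adjusted p = 0.321). TUBA4A, a minor alpha-tubulin here, ranged from 16.0 to 17.98 CPM against 14.4 to 18.1 CPM with overlapping groups (log2 change -0.09 ± 0.103, adjusted p = 0.687).

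TUBB2A, one of a pair of nearly identical beta-tubulins, had the largest change among the members. It stood at 63.1, 63.1 and 61.0 CPM in siControl Input against 46.4, 51.3 and 55.9 CPM in siIGF2BP3 Input (log2 change -0.33 ± 0.064, adjusted p = 0.00204). All 3 knockdown libraries were below all controls, with more spread among them. Its copy TUBB2B stood at 45.3, 49.8 and 46.7 CPM against 38.8, 40.7 and 44.9 CPM (log2 change -0.24 ± 0.0684, adjusted p = 0.0369), and the highest knockdown library came close to the lowest control.

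TUBB4B, the most abundant beta-tubulin in these cells, stood at 341.6, 351.6 and 337.7 CPM in siControl Input against 295.1, 306.5 and 320.7 CPM in siIGF2BP3 Input. The groups were apart and the log2 change was -0.21 ± 0.0443 (adjusted p = 0.00435). TUBB, the ubiquitous class I beta-tubulin, stood at 214.7, 204.9 and 208.8 CPM against 193.2, 195.3 and 195.1 CPM (log2 change -0.15 ± 0.0437, adjusted p = 0.0335). The knockdown libraries of TUBB lay close together, all below the lowest control. TUBB6, the class V beta-tubulin, ranged from 17.1 to 22.0 CPM in siControl and from 18 to 23.8 CPM in siIGF2BP3 (log2 change -0.02 ± 0.107, adjusted p = 0.955).

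TUBG1 stood at 137.8, 131.4 and 127.8 CPM in siControl Input and 130.4, 138.0 and 134.6 CPM in siIGF2BP3 Input. The groups overlapped (log2 change -0.03 ± 0.048, adjusted p = 0.824). A difference between the TUBG1 change and those of the alpha- and beta-tubulins was not tested.

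**Figure D3:**
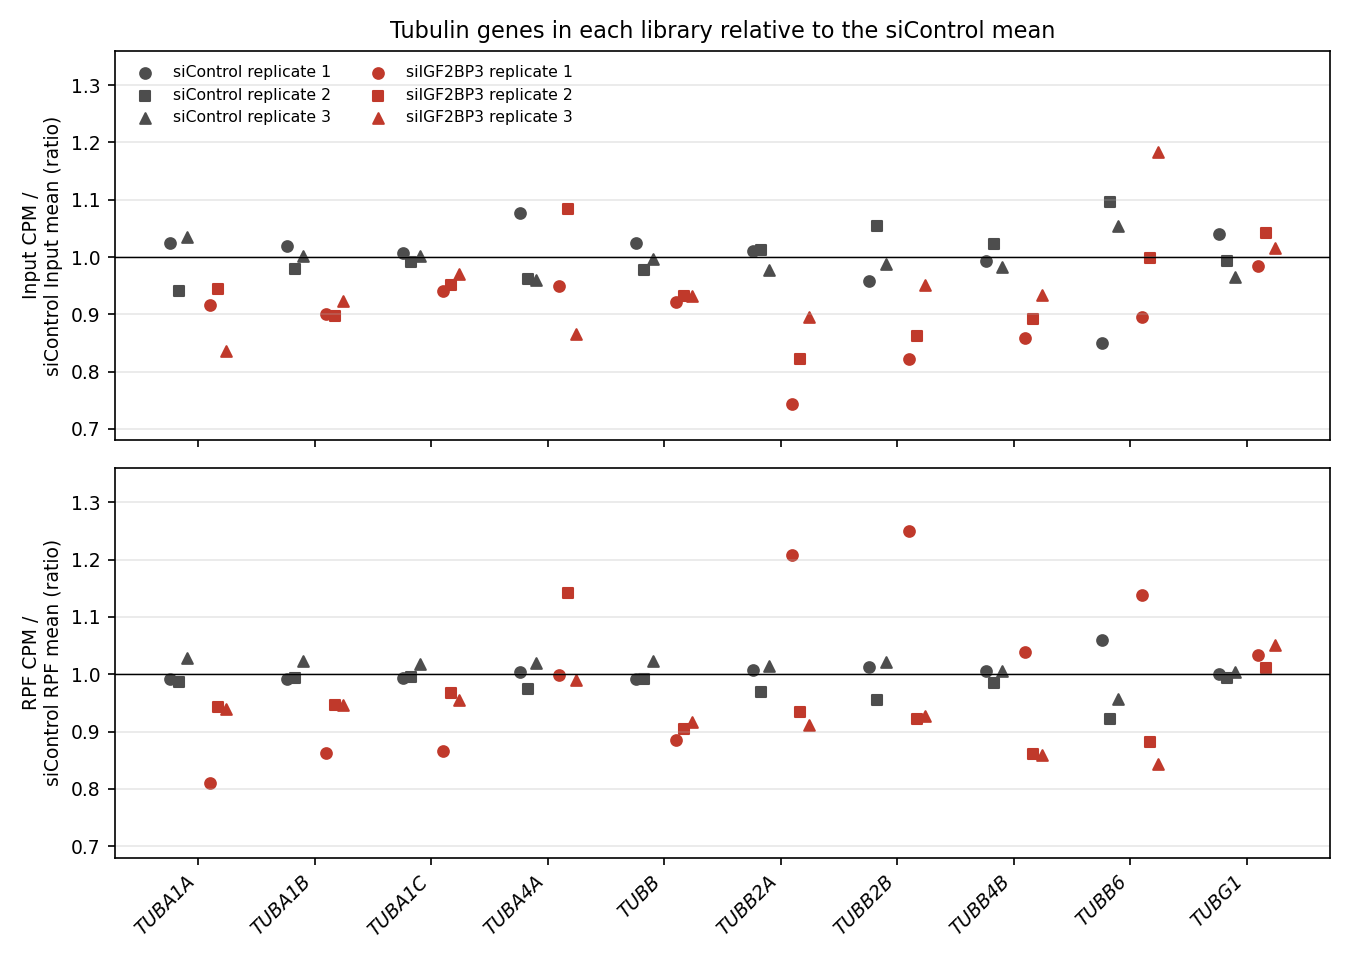
CPM of each tubulin gene in each library divided by the siControl mean of the same assay, Input above and RPF below, with siControl in grey, siIGF2BP3 in red and a marker shape for each replicate number. In Input the red points of 6 genes lie below all grey points; in RPF replicate 1 of siIGF2BP3 (red circle) lies above the other red points for TUBB2A, TUBB2B, TUBB4B and TUBB6 and below them for TUBA1A, TUBA1B and TUBA1C.

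Counting by position alone, 6 of 10 members had all siIGF2BP3 Input libraries below all siControl Input libraries in CPM, as did 5.73% of all genes tested. The median log2 change over the members was -0.17, against 0.00 over all genes. All 10 fitted changes were below 0, as were 49.5% of those of all genes tested. The direction of TUBB6 was not stable when single libraries were left out. The sizes were modest: the called changes correspond to fitted log2 changes between -0.33 and -0.15. Summed over the members, alpha-tubulin counts went from 1368, 1325 and 1350 CPM to 1238, 1242 and 1269 CPM (log2 ratio of means -0.11) and beta-tubulin counts from 681.8, 691.5 and 675.4 CPM to 591.6, 614.0 and 640.4 CPM (-0.15). Neither sum depended on how reads were divided among the listed members of a family, and in both the groups were apart. These sums are plain CPM, whereas the fit also used TMM normalization factors computed within the Input libraries, which are not shown here. TMM factors computed apart from the fit, over all 12 libraries, were 1.02 to 1.05 in siControl Input. In siIGF2BP3 Input they were 1.07 to 1.09.

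The calls did not depend equally on single libraries. TUBA1B, TUBB2A and TUBB4B passed the threshold under all 14 alternatives, with adjusted p of at most 0.0497, 0.0169 and 0.0223. TUBB was called in 9 and TUBB2B in 7 of them. TUBB lost its call without siControl Input replicate 1 (adjusted p = 0.0598) or 3 (0.118) and without siIGF2BP3 Input replicate 1 (0.0573), 2 (0.0896) or 3 (0.107). TUBB2B lost it without siControl Input replicate 2 (0.153) or 3 (0.0918), without siIGF2BP3 Input replicate 1 (0.135) or 2 (0.107), with DESeq2 (0.0557) and with an offset for gene length (0.0526). With 3 calls left, the lowest count of called members, the libraries left out were siControl Input replicate 3 or siIGF2BP3 Input replicate 1 or 2.

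The footprint comparison gave no call for any member with all 6 RPF libraries. In edgeR 0 of 10 passed, where 1.66% of 20192 genes did. An unadjusted p under 0.05 was reached by 3 members (TUBA1A, TUBA1B and TUBB) and by 3251 of the 20192 genes. DESeq2 likewise called 0, with 3 at an unadjusted p under 0.05. The median log2 change over the members was -0.07, against 0.01 over all genes.

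Footprints of TUBA1A, TUBA1B and TUBA1C were lower in every knockdown library than in every control. TUBA1A footprints stood at 592.1, 588.7 and 614.1 CPM in siControl against 483.7, 562.7 and 560.3 CPM in siIGF2BP3 (log2 change -0.14 ± 0.0531, adjusted p = 0.24). TUBA1B stood at 979.5, 981.5 and 1011 CPM against 852.4, 935.4 and 935.8 CPM (-0.11 ± 0.0409, adjusted p = 0.244). TUBA1C stood at 898.5, 899.8 and 921.2 CPM against 783.6, 874.2 and 863.6 CPM (-0.09 ± 0.042, adjusted p = 0.336). In all of them the lowest value was siIGF2BP3 replicate 1, the library that stands apart. TUBA4A ranged from 10.3 to 10.7 CPM against 10.4 to 12.01 CPM (0.08 ± 0.0759, adjusted p = 0.679).

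The beta-tubulin TUBB was lower in every knockdown library, with 351.2, 351.2 and 362.3 CPM in siControl RPF and 313.5, 319.9 and 324.4 CPM in siIGF2BP3 RPF (log2 change -0.14 ± 0.0405, adjusted p = 0.154). TUBB4B stood at 691.2, 676.9 and 691.2 CPM against 714.4, 592.2 and 591.3 CPM (-0.10 ± 0.0899, adjusted p = 0.671), with siIGF2BP3 replicate 1 above all controls and the other two below. The same library was the highest of all 6 for TUBB2A (85.4 CPM, others 64.5 to 71.7), TUBB2B (58.9 CPM, others 43.4 to 48.1) and TUBB6 (30.5 CPM, others 22.6 to 28.4). Their log2 changes were 0.04 ± 0.119, 0.06 ± 0.13 and -0.04 ± 0.128, with adjusted p of 0.91, 0.877 and 0.932. TUBG1 footprints stood at 168.0, 166.8 and 168.6 CPM against 173.5, 169.7 and 176.3 CPM, all knockdown libraries above all controls (0.06 ± 0.0446, adjusted p = 0.566). By position alone, 4 of 10 members (TUBA1A, TUBA1B, TUBA1C and TUBB) had all knockdown RPF libraries below all controls, as did 14.8% of all genes tested. TUBG1 was the only member with all of them above, and the share of all genes above was not computed.

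Without siIGF2BP3 RPF replicate 1 the footprint result changed. Then 6 of 10 members were called, all lower, where 16.5% of 20615 genes were called and 8.57% were called lower. TUBB4B had a log2 change of -0.22 ± 0.0218 (adjusted p = 0.000126), TUBB6 of -0.20 ± 0.0567 (0.0378), TUBB of -0.14 ± 0.0265 (0.00465), TUBB2A of -0.12 ± 0.0328 (0.0362), TUBA1A of -0.09 ± 0.0267 (0.0348) and TUBA1B of -0.09 ± 0.0253 (0.0418). TUBB2B (-0.11 ± 0.0379, adjusted p = 0.0751) and TUBA1C (-0.06 ± 0.0245, adjusted p = 0.107) missed the threshold, and TUBA4A and TUBG1 were at 0.09 ± 0.0718 and 0.04 ± 0.0271. Over the other 14 alternatives no member was called. The near-identical siControl replicates 2 and 3 enter this comparison as separate libraries. The knockdown group is then replicates 2 and 3 alone, which differed little beyond sampling noise (mean chi-square 1.15). The siControl pair was summed into 1 library only with all knockdown libraries kept, where 0 members were called with or without the sum. Summing was not run without siIGF2BP3 replicate 1, so it does not bear on the 6 calls.

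**Figure D4:**
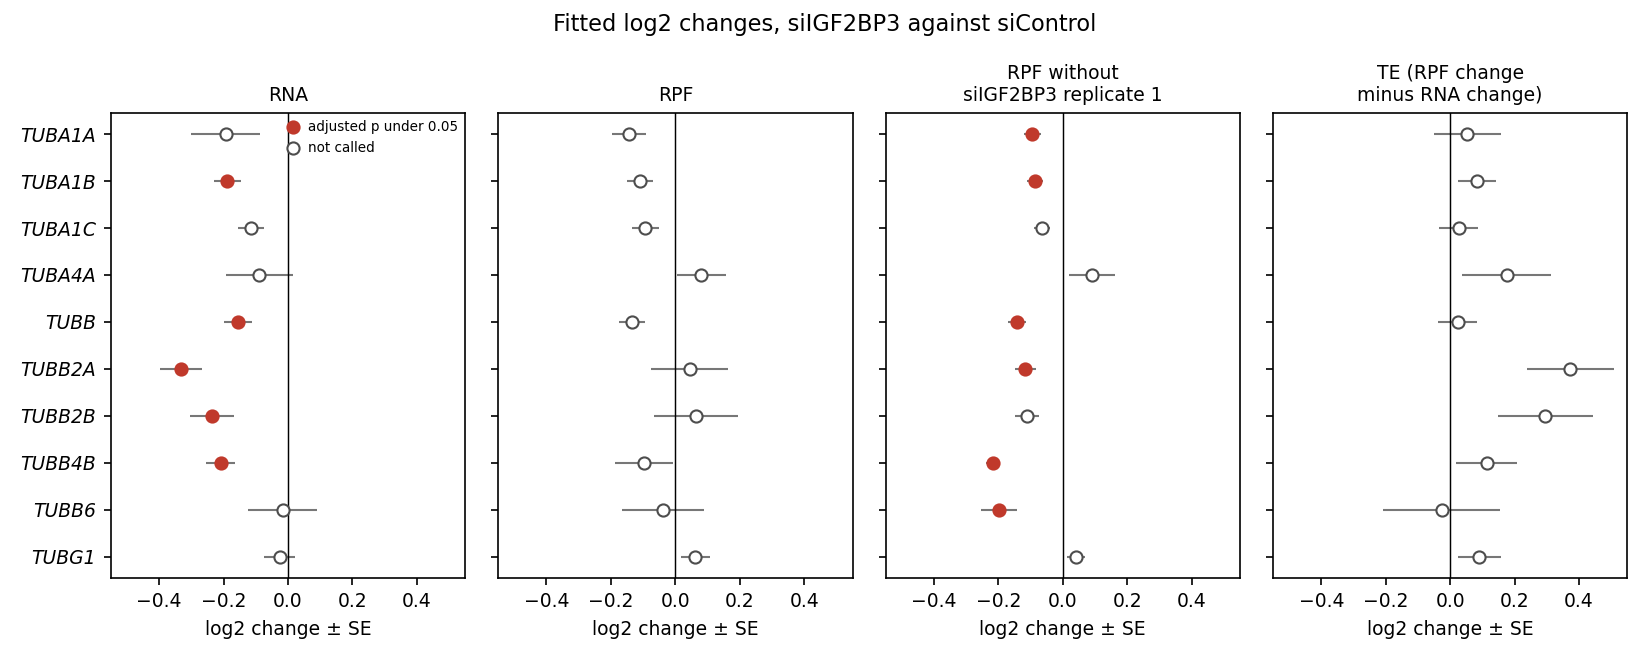
Fitted log2 changes (siIGF2BP3 against siControl) with standard errors as bars for the 10 tubulin genes in RNA, in RPF with all libraries, in RPF without siIGF2BP3 replicate 1 and in TE; filled red points have an adjusted p under 0.05. There are 5 filled points in RNA, 0 in RPF with all libraries, 6 without that replicate and 0 in TE.

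Translational efficiency (TE) is the footprint change relative to the transcript change, tested as an interaction in 1 model over all 12 libraries. In edgeR 0 of 10 members passed, where 2.17% of 13395 genes did. An unadjusted p under 0.05 was reached by 1 member, TUBB2A, and by 2130 of the 13395 genes. DESeq2 also called 0, with 1 at an unadjusted p under 0.05. Of the 10 fitted TE changes 9 were above 0 and 1 was below, where 48.4% of all genes were below 0. The median was 0.09, against 0.01 over all genes.

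TUBB2A had the largest TE value, 0.37 ± 0.135 (SE, adjusted p = 0.174), and its ratio of mean RPF to mean Input CPM was 1.13 in siControl and 1.40 in siIGF2BP3. TUBB2B followed at 0.30 ± 0.147 (adjusted p = 0.348) and TUBA4A at 0.18 ± 0.138 (adjusted p = 0.585). TUBB4B (0.11 ± 0.0936), TUBG1 (0.09 ± 0.0657), TUBA1B (0.08 ± 0.0592), TUBA1A (0.05 ± 0.104), TUBA1C (0.03 ± 0.0598), TUBB (0.02 ± 0.059) and TUBB6 (-0.03 ± 0.182) had adjusted p from 0.54 to 0.964. For TUBB and TUBA1C the transcript and footprint changes were close in size. Without siIGF2BP3 RPF replicate 1, TUBB2A alone was called, at 0.22 ± 0.0733 (adjusted p = 0.0497, range over 23 alternatives 0.0497 to 0.323), where 10% of genes were called. TUBB2B then stood at 0.14 ± 0.0801 (adjusted p = 0.317), below TUBA4A at 0.19 ± 0.131 (adjusted p = 0.423), and TUBB4B at 0.00 ± 0.0504 (adjusted p = 0.999). TUBA1A and TUBB6 stood at 0.11 ± 0.0946 and -0.17 ± 0.128 (adjusted p = 0.543 and 0.457).

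Alpha-tubulin footprint sums went from 2481, 2480 and 2557 CPM in siControl to 2130, 2384 and 2370 CPM in siIGF2BP3 (log2 ratio of means -0.12). Beta-tubulin footprint sums went from 1190, 1166 and 1199 CPM to 1203, 1045 and 1046 CPM (-0.11), with replicate 1 of siIGF2BP3 above the controls. The alpha share of the alpha and beta footprints was 67.6%, 68.02% and 68.1% in siControl and 63.9%, 69.5% and 69.4% in siIGF2BP3. The alpha groups were apart and the beta groups overlapped through that 1 library, and without it the log2 ratios were -0.07 for alpha and -0.18 for beta.

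The 2 recognition factors of tubulin mRNAs, TTC5 and SCAPER, passed the test in no comparison. The nascent chain reader TTC5 stood at 21.6, 17.2 and 17.1 CPM in siControl Input and 17.9, 18.2 and 11.98 CPM in siIGF2BP3 Input (log2 change -0.26 ± 0.125, adjusted p = 0.246), with overlapping groups. Its footprint change was 0.06 ± 0.0588 (adjusted p = 0.72) and its TE change 0.32 ± 0.167 (adjusted p = 0.363). Without siIGF2BP3 Input replicate 3, the lowest library, the RNA and TE changes were -0.09 and 0.15. The adaptor SCAPER stood at 51.4 to 57.5 CPM in siControl Input and 55.1 to 60.8 CPM in siIGF2BP3 Input, with RNA, RPF and TE changes of 0.03 ± 0.0638, -0.09 ± 0.151 and -0.10 ± 0.155 (adjusted p = 0.824, 0.845 and 0.798). SCAPER footprints were scarce, between 3.99 and 6.79 CPM. With the 10 CCR4-NOT subunits the list holds 12 genes, of which 1 (8.33%) was called in RNA, where 5.96% of all genes were. The called gene was CNOT2, a CCR4-NOT subunit, which rose by 0.21 ± 0.053 (adjusted p = 0.0146) and was called under 9 of 14 alternatives. It lost the call with the length offset (adjusted p = 0.0628), without siControl Input replicate 3 (0.07) and when siIGF2BP3 Input replicate 1 (0.0551) or 3 (0.0656) was left out. None of the 12 was called in RPF or TE in edgeR, with 3 at an unadjusted p under 0.05 in each. For this list and those that follow, DESeq2 also called 0 genes wherever edgeR called 0. In edgeR over all genes, 3017 of 14759 in RNA reached an unadjusted p under 0.05. That level was reached by 3251 of 20192 in RPF and 2130 of 13395 in TE.

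New tubulin chains are folded by prefoldin, the CCT chaperonin and the tubulin cofactors. Of 22 such genes 4 were called in RNA, all lower, and 19 had log2 changes below 0, with a median of -0.08. Over all genes tested in RNA, 5.96% were called, 1.9% were called lower, 49.5% had changes below 0 and the median was 0.00. The called genes were the chaperonin subunits CCT7 (-0.17 ± 0.0465, adjusted p = 0.0248), CCT3 (-0.16 ± 0.0436, adjusted p = 0.025) and CCT5 (-0.16 ± 0.0426, adjusted p = 0.0238) and PDCL3 (-0.26 ± 0.0711, adjusted p = 0.0258), a phosducin-like protein that works with the chaperonin. They kept the call under 10, 9, 10 and 11 of 14 alternatives, and all the losses came with a library left out. CCT7, CCT3, CCT5 and PDCL3 all lost it without siControl Input replicate 3 (adjusted p = 0.0538, 0.0923, 0.0934 and 0.173) and without siControl Input replicate 2 (0.0605, 0.0633, 0.0653 and 0.0594). Some were also lost without siIGF2BP3 Input replicate 1, 2 or 3, with adjusted p from 0.0504 to 0.167. DESeq2 called CCT8 as well in RNA, for which edgeR gave -0.13 ± 0.0434 (adjusted p = 0.0662). None of the 22 was called in RPF or TE, with 2 and 5 at an unadjusted p under 0.05. CCT5 footprints, for example, stood at 541.3 ± 8.04 CPM (SD, n = 2) in siControl and 546.7 ± 39.5 CPM (n = 3) in siIGF2BP3.

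Among 12 other tubulin genes, 5 passed the filter on low counts in RNA and 1 was called, where 5.96% of all genes tested were. TUBG2, the second gamma-tubulin gene, rose from 48.8, 47.3 and 51.2 CPM in siControl Input to 65.1, 69.7 and 69.0 CPM in siIGF2BP3 Input (log2 change 0.43 ± 0.0595, adjusted p = 5.13e-05). All knockdown libraries were above all controls, and the call held under all 14 alternatives. TUBG1 shares 44.7% of its 29-base coding windows with TUBG2. TUBG2 footprints stood at 50.4, 47.2 and 50.0 CPM in siControl and 60.1, 51.1 and 48.7 CPM in siIGF2BP3, with overlapping groups (0.13, adjusted p = 0.574), and its TE change was -0.30 (adjusted p = 0.156). No other tubulin was called in RPF (9 tested, 1 at an unadjusted p under 0.05) or TE (5 tested, 2). Of the 9 other genes of the gamma-tubulin complex none was called in RNA, RPF or TE, with 1 at an unadjusted p under 0.05 in each.

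Microtubule dynamics genes were called in both directions. Of 15 in RNA 2 (13.3%) were called, where 5.96% of all genes were. STMN1, which sequesters tubulin dimers, fell by 0.21 ± 0.0474 on the log2 scale (adjusted p = 0.00777), and CLASP1, which stabilises plus ends, rose by 0.22 ± 0.0489 (adjusted p = 0.0075). STMN1 lost its call without siControl Input replicate 2 (adjusted p = 0.0546) or siIGF2BP3 Input replicate 3 (0.0539), and CLASP1 without siControl Input replicate 3 (0.0519) or siIGF2BP3 Input replicate 2 (0.0577). KIF2C, a depolymerising kinesin, was the only one of 14 (7.14%) called in RPF in edgeR, where 1.66% of all genes were. It stood at 92.3, 86.7 and 87.1 CPM in siControl and 66.4, 69.0 and 71.5 CPM in siIGF2BP3 (log2 change -0.35 ± 0.0457, adjusted p = 0.0176). Its call was kept under 8 of 15 alternatives and was lost when siControl RPF replicates 2 and 3 were summed (adjusted p = 0.114, range over the alternatives 8.54e-06 to 0.151). It was also lost without siControl RPF replicate 1 (0.151), 2 (0.123) or 3 (0.135) and without siIGF2BP3 RPF replicate 2 (0.107) or 3 (0.0618), and with the replicate block and length offset together (0.0549). DESeq2 called STMN3 as well as KIF2C in RPF. The STMN3 footprint change in edgeR was 0.39 ± 0.0854 (adjusted p = 0.0736). None of the dynamics genes was called in TE, with 4 at an unadjusted p under 0.05.

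Of 11 tested tubulin modification genes 2 were called in RNA, both higher, where 5.96% of all genes were called and 598 of those 879 calls were higher. HDAC6, a tubulin deacetylase, rose by 0.29 ± 0.0647 (adjusted p = 0.00691) and MATCAP1, a tubulin detyrosinase, by 0.42 ± 0.121 (adjusted p = 0.0368). HDAC6 lost the RNA call without siIGF2BP3 Input replicate 2 (adjusted p = 0.0642), and MATCAP1 without siControl Input replicate 2 (0.084) or 3 (0.145) and without siIGF2BP3 Input replicate 2 (0.175) or 3 (0.0811). DESeq2 gave MATCAP1 no adjusted p. HDAC6, alone of the 11, was also called in TE, where 2.17% of all genes were. Its TE change was -0.44 ± 0.0903 (adjusted p = 0.0137). Its footprints stood at 48.5, 48.8 and 46.2 CPM in siControl and 41.7, 43.1 and 42.6 CPM in siIGF2BP3, and the TE call held under 20 of 23 alternatives, being lost without siControl RPF replicate 2 (adjusted p = 0.0535), with a culture block (0.0565) and with the replicate block and length offset together (0.0548). None of the 11 was called in RPF, with 2 at an unadjusted p under 0.05.

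The genes whose library-to-library pattern was most like the summed counts of the 10 members were AMBP, SDHA, KRT18, PSMB5 and PDIA3. Pearson correlations over the 12 libraries, with the mean of each assay removed, ranged from 0.965 for PDIA3 to 0.984 for AMBP among 9749 genes. The points share library, depth and the siRNA groups, so the values are a description.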

How the data were processed

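As deposited, each table holds the estimated counts per gene of 1 library, many of them fractional. The study's methods and the submitters' processing notes name cutadapt for trimming, STAR for alignment (hg38) and featureCounts for counting, with versions, strand and multi-mapping settings not given in the sources used here. The counts were rounded here (absolute changes summed to at most 0.0445% of a library). Of 58721 identifiers 58252 matched GENCODE 44 symbols. edgeR 4.0.16 (R 4.3.3) quasi-likelihood tests with filterByExpr, TMM factors, robust dispersion and Benjamini-Hochberg adjustment over all genes tested gave RNA, RPF, TE (interaction) and siControl RPF against Input. A gene was called at an adjusted p under 0.05. DESeq2 1.42.0, other normalizations and filters, a gene length offset (lowess span 0.3), replicate blocks and leaving out each library were alternatives; DESeq2 gave no adjusted p for 6009 (RNA), 3919 (RPF) and 3376 (TE) genes, none of them members. The methods name DESeq2 for TE. All 4 tests were checked on simulated data. Their power to detect changes as small as those of the members, or with a library that stands apart, was not tested.

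Replicate chi-squares used genes with at least 20 counts. Same-numbered RPF libraries of the 2 siRNAs deviated together (correlations 0.405, 0.35 and 0.145), while Input libraries did not (0.0307, -0.0142 and -0.0392). Across numbers, siControl RPF replicate 2 correlated with siIGF2BP3 replicate 3 (0.247), and siControl replicate 3 with siIGF2BP3 replicate 2 (0.211). RPF replicate 1 of each siRNA correlated negatively with replicates 2 and 3 of the other (-0.44 to -0.193). Deviations were taken from the group mean, so these negative values follow in sum from the positive one between same-numbered replicate 1 libraries. They are not separate evidence. The data thus set replicate 1 apart without pairing replicates 2 and 3, and no label gives a pairing. Coding sequences came from GENCODE 44 and windows were matched exactly to all its transcripts. Protein sequences were not used here. Depth limits the precision of scarce transcripts such as TUBA1A in Input, and no molecular identifiers are described in the sources used here.

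The members and lists were chosen with earlier results of these data known. All members are named in every comparison, with TTC5, SCAPER and, from each other list, at most the 4 called genes with the largest change. Other lists held 12 autoregulation, 22 folding, 12 other tubulin, 9 gamma-tubulin complex, 15 dynamics and 12 modification genes.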

Additional observations from a re-analysis of the deposited data

How the results depend on the processing

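Counts of called members in RNA were 4 or 5 under DESeq2, other normalizations, filters, blocks and the length offset, and 3 to 4 with a library left out. In RPF they were 0 except for 6 without siIGF2BP3 replicate 1 (leave-one-out range 0 to 6), and in TE 0 except for 1 without the same library (range 0 to 1). In the siControl comparison 9 members were called throughout. The number of all genes called moved more: RPF gave 336, 674 with DESeq2, 14 with siControl replicates 2 and 3 summed and 11 to 3410 with a library left out. TE gave 291, 143 with those replicates summed, 121 with a culture block, 178 without a filter and 126 to 1350 with a library left out. RNA gave 879 and 444 to 995 elsewhere. Without each library in turn, TUBB6 ranged from -0.127 to 0.0641 in RNA, -0.198 to 0.0561 in RPF and -0.169 to 0.0825 in TE, and in RPF TUBB2A ranged from -0.116 to 0.129 and TUBB2B from -0.111 to 0.15; none of these is a stable direction. SCAPER ranged from -0.0146 to 0.0784 in RNA, -0.265 to 0.0386 in RPF and -0.286 to 0.0147 in TE. With the length offset, TUBB TE became -0.0025 (-0.00264 with the replicate block) and SCAPER RNA -0.0136 (-0.0127). With the replicate block the counts of called members were 5 in RNA, 0 in RPF, 0 in TE and 9 in siControl, so blocking by replicate number changed no call of a member. The summed alpha and beta log2 ratios kept their direction with pseudogenes or all tubulin genes of the family added. RPF per kilobase of exon instead of coding sequence placed TUBB4B (325.7) above TUBA1B (276.4). The causes of these differences were not tested.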
